A study of Mus musculus with 2 samples.

Results

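The 800 non-pluripotent cells highest in Pcp4, Nxpe2, Ntrk2, Thbd, Mecom and Cytl1 were described here, out of 7023 cells profiled by droplet single-cell 3' RNA-seq at day 16 of STEMCCA reprogramming of mouse embryonic fibroblasts (MEFs). The cells were selected on these measured values: each of the 6 genes was z-scored over all cells, the z-scores were averaged, and the 800 highest cells were taken among those with a transcript count for fewer than 3 of the 5 pluripotency genes Utf1, Tdgf1, Tdh, Nanog and Dppa4. Of the 7023 cells 6466 met that filter (2949 in replicate 1 and 3517 in replicate 2), and 557 cells with 3 or more of the filter genes were left out. The gated cells numbered 321 in replicate 1 and 479 in replicate 2, and the other non-pluripotent cells, which hold every remaining state of the culture, numbered 2628 and 3038. All 800 gated cells entered the comparison with the other cells.

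Both libraries were of 1 group: unsorted MEFs carrying STEMCCA, the doxycycline-inducible cassette of Pou5f1, Sox2, Klf4 and Myc, kept with doxycycline, ascorbic acid and leukaemia inhibitory factor in serum-containing medium. There was no untreated, sorted or uninduced sample. The labels do not say that the libraries came from separate cultures, so every p-value below measures only the spread between these 2 libraries, which may be technical. For limma, that spread was drawn in part from the other genes. The study describes 2 independently made STEMCCA mouse lines for its day 16 data, and the labels do not tie a library to a line. A difference between the libraries may therefore also be one between lines, and the 2 cannot be told apart. Cells of a library are not replicates, and cells were compared as means per library.

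Reprogramming replaces the fibroblast programme of MEFs with that of pluripotent stem cells, and most cells of such a culture do not complete it. Ntrk2 is the receptor TrkB for brain-derived neurotrophic factor, Thbd is thrombomodulin, the cell-surface protein that turns thrombin towards protein C activation, and Pcp4 is a small calmodulin-binding protein. Mecom encodes a zinc finger transcription factor of blood stem cells, and Cytl1 a secreted protein known from cartilage.

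In replicate 1 the gated cells made up 10.9% of the non-pluripotent cells (exact binomial 95% interval 9.78 to 12.1), and in replicate 2 they made up 13.6% (12.5 to 14.8). The mean was 12.3% ± 1.93 (SD, n = 2 libraries), and these intervals cover counting error only. The score ran without a gap across the limit: cell 1 scored 4.09, cell 800 scored 0.5218, cell 801 scored 0.5217 and cell 1600 scored 0.195. Rank 800 was set by the rule and marks no gap in the score.

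The genes in the label did not carry the gate equally. These values were used to choose the cells and are given with no test. Mecom was detected in 70.7% and 55.5% of the gated cells (replicates 1 and 2). Nxpe2, a gene of the neurexophilin and PC-esterase domain family, was detected in 64.8% and 62.4%, Thbd in 62.6% and 60.3%, and Ntrk2 in 36.4% and 45.3%. Pcp4, which leads the label, was detected in only 9.66% and 21.7% of the gated cells, and Cytl1 in 8.41% and 9.60%. Pcp4 was thus not detected in most of the cells that its label names.

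In the other non-pluripotent cells Mecom was detected in 17.6% and 14.1%, Nxpe2 in 20.9% and 20.9%, and Ntrk2 in 4.07% and 5.96%. Free RNA in droplets gives a background to such shares. In the 557 cells with 3 or more filter genes, which were deeper (medians 28353.5 and 26097 counted molecules, or UMIs, per cell), the 6 genes were each found in 1.25% to 7.05% of cells. Of the 800 gated cells 735 (91.9%) had a UMI of 2 or more of the 6 genes, against 785 of the 5666 other cells (13.9%), and 399 against 91 had 3 or more. The remaining 65 gated cells entered through 1 gene. With every cell thinned to 3000 UMIs, Mecom was found in 34.6% and 24.2% of gated and 5.40% and 4.15% of other cells, Nxpe2 in 32.4% and 30.7% against 6.32% and 6.62%, and Pcp4 in 4.05% and 9.81% against 0.152% and 0.461%.

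**Figure D1:**
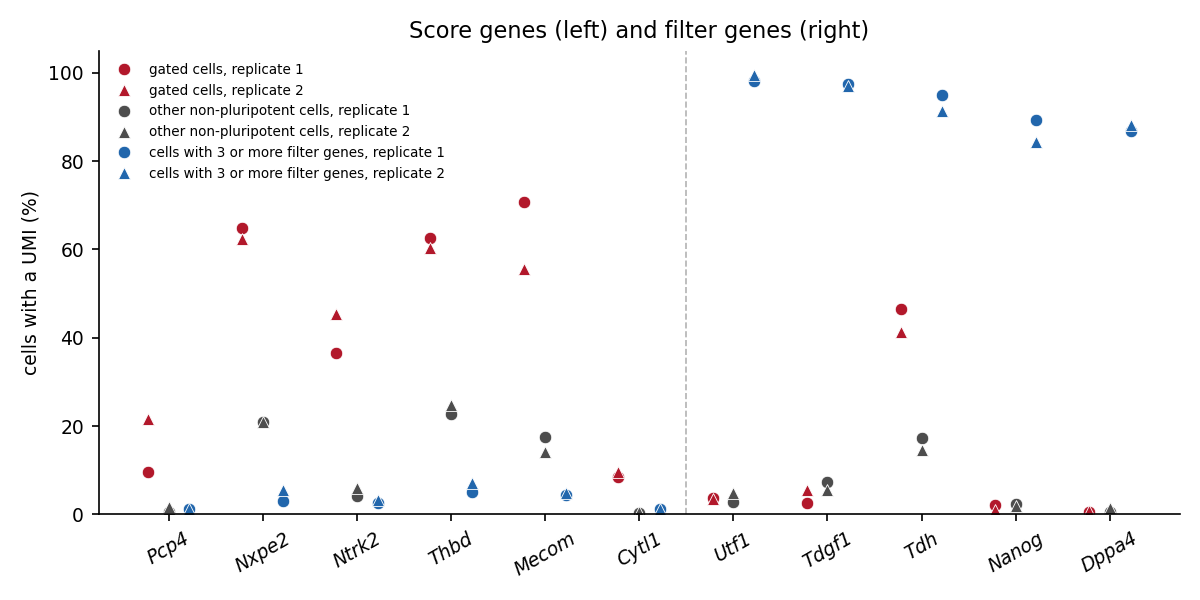
Share of cells with a UMI (y axis, %) of the 6 score genes (left of the dashed line) and the 5 filter genes (right), for gated cells, other non-pluripotent cells and cells with 3 or more filter genes. Circles are replicate 1 and triangles replicate 2. Pcp4 and Cytl1 were found in few gated cells, and Tdh was the filter gene that gated cells had most often (46.4% and 41.3%).

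Of the filter genes, Tdh, which encodes threonine dehydrogenase of mouse pluripotent cells, stood at 0.727 and 0.621 UMIs per 10,000 in gated cells (replicates 1 and 2) and at 0.206 and 0.160 in the other cells. In the 557 excluded cells it stood at 2.14 and 2.18. Nanog stood at 0.0146 and 0.00807 in gated cells, and Dppa4 at 0.00404 and 0.00796, while the excluded cells had 1.07 and 1.14 for Nanog. Tdh was thus present in many gated cells without the other filter genes. The filter used Tdh and left out cells with several of these genes, so this was in part set by the rule and is a description.

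Gating by 5 of the genes left the sixth unused, and all 6 were higher in both libraries in the cells so chosen. For Mecom the means were 0.788 and 0.531 per 10,000 in the 800 cells gated by the other 5 genes and 0.295 and 0.214 in the rest. For Ntrk2 they were 0.321 and 0.380 against 0.0993 and 0.152, and for Pcp4 0.0712 and 0.344 against 0.0207 and 0.0875. The sets chosen by 5 genes shared between 614 (without Thbd) and 756 (without Cytl1) of their cells with the 800. Since the 6 genes were picked from these data, no test was made of their going together.

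Pairs of the genes did not all go together to the same degree. Among non-pluripotent cells, Ntrk2 and Mecom were found in the same cell 95 and 130 times, which is 1.82 and 1.65 times the product of their shares. Ntrk2 and Cytl1 were found together 14 and 18 times, or 5.42 and 2.61 times that product. Thbd was above the product with Pcp4 (1.64 and 1.32), Nxpe2 (1.27 and 1.30) and Mecom (1.38 and 1.48), but with Ntrk2 its ratios were 0.838 and 1.13, and with Cytl1 0.433 and 0.773, on only 4 and 14 cells. Pcp4 and Cytl1 were found together in 0 and 2 cells (ratios 0 and 0.739). In cells thinned to 3000 UMIs the ratios were 2.81 and 2.19 for Ntrk2 and Mecom, 0.856 and 1.32 for Ntrk2 and Thbd, and 0 and 0.487 for Thbd and Cytl1, the last on 0 and 2 cells. All of these values are descriptions.

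The gated cells were shallower than the others in both libraries. Their medians were 13376 and 11936 UMIs per cell, against 15431 and 13921, and 2973 and 2730 detected genes against 3305 and 2955. After every cell was thinned to 3000 UMIs, the medians were 1141 and 1095 genes against 1153 and 1099. Mitochondrial RNA made up 4.32% and 4.27% of UMIs, against 4.01% and 4.05%. Of the gated cells 0.935% and 0.626% were among the 5% deepest of their library, against 4.34% and 3.36% of the others. The part of depth in the results below was not tested by itself, but the same comparisons were repeated with the score made on thinned cells and on summed UMIs.

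By the genes the rule did not use, the gated cells tended to lie near each other. In 30 principal components made without the score and filter genes, 36.9% ± 1.78 (SD, n = 2) of the 15 nearest neighbours of a gated cell were gated, against 8.14% for the other cells. This is 28.8 percentage points apart, and the exact two-sided sign-flip p was 0.5, the smallest that 2 libraries can give. Most neighbours of a gated cell were therefore still outside the gate.

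The question of the main comparison was which other genes set these cells apart from the remaining non-pluripotent cells. Of 7082 genes that reached a mean of 0.1 per 10,000, 405 were higher (5.72%) and 535 lower (7.55%) in gated cells at a limma adjusted p under 0.05, and 2053 had an unadjusted p under 0.05. All values are means of UMIs per 10,000 over the cells of a library, and folds are on the log2(mean + 0.1) scale, which understates the change of low genes. Most differences were small: 7 genes (0.0988%) were at least 2-fold higher in both libraries and 15 (0.212%) at least 2-fold lower. The classes were cut from the same cells that were then compared, so the adjusted p says how alike the libraries were in a difference, not that a separate cell type exists. The calls were 167 higher and 198 lower with the score made on thinned cells, and 17 and 18 without a term for library.

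**Figure D2:**
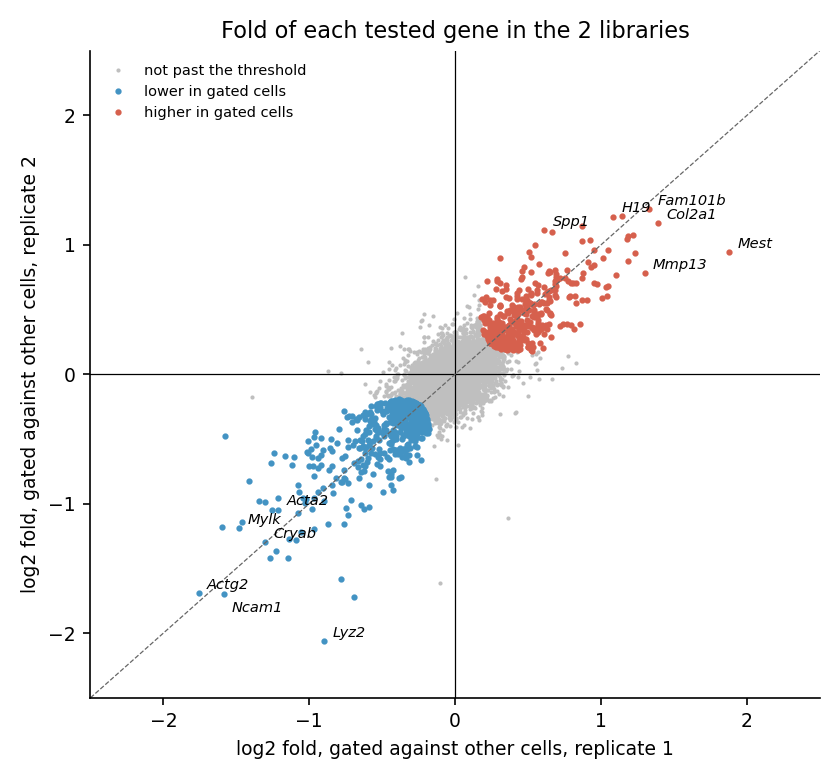
Each point is 1 of the 7082 tested genes, with its log2 fold between gated and other non-pluripotent cells in replicate 1 (x axis) and replicate 2 (y axis); red and blue points passed the threshold, and the dashed line marks equal folds. Mest, Fam101b and Col2a1 lay highest and Actg2 and Ncam1 lowest, and 70.9% of the genes had the same sign in both libraries.

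The largest folds among the genes higher in gated cells included those of the actin regulator Fam101b and the imprinted genes Mest, H19 and Plagl1. Fam101b (chr11:76019194-76027782, minus strand, GRCm38), whose product refilin B binds filamin and organises actin filaments, stood at 3.49 and 2.87 in gated cells and at 1.33 and 1.13 in the others. The 2 classes did not overlap, and the log2 fold was 1.30 ± 0.06 (SE, limma adjusted p = 0.00041). Its relative Fam101a stood at 0.341 and 0.335 against 0.0995 and 0.0863 (log2 fold 1.18). Both refilin genes were thus higher in both libraries.

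Mest, a paternally expressed imprinted gene, had the largest fold but also the largest error. It stood at 0.923 and 0.394 in gated cells and 0.178 and 0.157 in the others, with a log2 fold of 1.41 ± 0.19 (limma adjusted p = 0.0051). Replicate 1 was far higher than replicate 2 in the gated cells alone. H19 (chr7:142575529-142578143), the maternally expressed non-coding RNA next to Igf2, was steadier at 8.23 and 8.15 against 3.83 and 3.45 (log2 fold 1.15 ± 0.07). Plagl1, an imprinted zinc finger gene, stood at 0.585 and 0.655 against 0.203 and 0.266 (log2 fold 1.11 ± 0.07).

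Smoc2, Mmp13 and Igfbp4, which encode secreted proteins, were among the other named higher genes. Smoc2, a calcium-binding matrix protein, stood at 0.633 and 0.543 against 0.215 and 0.204 (log2 fold 1.15). Mmp13, a collagenase, stood at 1.12 and 0.498 against 0.396 and 0.248 (1.04). Igfbp4, which binds insulin-like growth factors, stood at 1.97 and 1.28 against 0.807 and 0.652 (1.03). These 3 genes had no overlap between the classes, though replicate 1 was above replicate 2 within the gated cells in each case.

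Cdo1, the enzyme that oxidises cysteine, had a log2 fold of 0.96 and Plvap, the diaphragm protein of fenestrated vessels, one of 0.95. Then followed Itgbl1 (0.90), the extracellular superoxide dismutase Sod3 (0.88), Spp1 or osteopontin (0.86), the hyaluronan-degrading Cemip (0.86), 1500015O10Rik (0.84) and the interleukin 11 receptor Il11ra1 (0.83). These 15 named genes were picked for the largest folds from the 5.72% called higher, and the largest adjusted p was 0.0051. Only 1500015O10Rik overlapped between the classes, but a lack of overlap in the others was in part set by that choice. Spp1 was not firm in direction: with only the 400 highest cells its log2 fold was −0.12 and with Mecom left out of the score −0.45.

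The genes lower in gated cells were led by contractile genes. Actg2 (chr6:83512905-83536265, minus strand), the enteric smooth muscle actin, stood at 3.57 and 2.42 in gated cells and at 12.3 and 8.02 in the others. The log2 fold was −1.72 ± 0.06 (limma adjusted p = 0.00023). Acta2 (chr19:34241090-34255590, minus strand), the vascular smooth muscle actin of myofibroblasts, stood at 8.56 and 5.99 against 19.95 and 12.5 (log2 fold −1.13 ± 0.07). These 2 actins are near-identical in coding sequence, and no source used here says how such reads were shared out, so each value is uncertain to that extent.

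All 8 tested members of a list of 10 smooth muscle genes were lower (median log2 fold −1.08), against 7.55% of all tested genes and a median over all genes of −0.02. Tagln, the actin-binding protein SM22, stood at 3.03 and 2.47 against 7.83 and 4.97. Myl9, the regulatory light chain of myosin, stood at 1.34 and 0.907 against 2.94 and 1.72. Mylk, the kinase of that light chain, stood at 0.157 and 0.0255 against 0.617 and 0.186. Cnn1, Tpm2 and Lmod1 had log2 folds of −1.03, −0.84 and −0.92. Together the 10 genes made up 17.9 and 12.9 UMIs per 10,000 in gated cells and 46.5 and 29.3 in the others, a difference of −22.5 ± 8.67 (SD, n = 2, exact sign-flip p = 0.5). No gene of the list changed direction under any of the alternatives tried. Myh11 and Des, the markers of mature smooth muscle, were near 0 in both classes and were not tested.

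**Figure D3:**
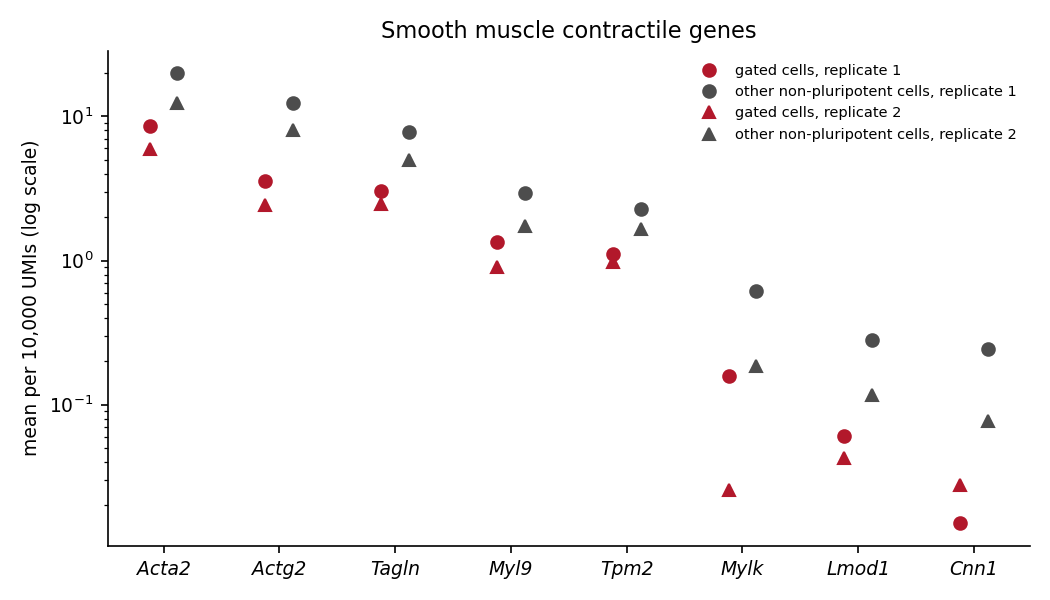
Mean UMIs per 10,000 (y axis, log scale) of the 8 tested smooth muscle genes in gated (red) and other non-pluripotent cells (grey), circles for replicate 1 and triangles for replicate 2. For each gene both gated values lay below both values of the other cells.

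Contractile genes are known targets of serum response factor, which binds the CArG box, CC followed by 6 bases of A or T and then GG. The promoters of the 2 list members that held such a box are shown because contractile genes led the lower group. The windows are from RefSeq (GRCm38.p6), from 250 bases before to 50 after the annotated start, and capitals mark boxes with at most 1 G or C among the 6 middle bases, overlapping matches counted and the palindromic form making both strands the same search. Myl9 lies at chr2:156775214-156775513 on the plus strand, with boxes starting 161 and 99 bases before the start, and Acta2 at chr19:34255324-34255623 on the minus strand, with boxes 84 and 34 bases before it.
Myl9: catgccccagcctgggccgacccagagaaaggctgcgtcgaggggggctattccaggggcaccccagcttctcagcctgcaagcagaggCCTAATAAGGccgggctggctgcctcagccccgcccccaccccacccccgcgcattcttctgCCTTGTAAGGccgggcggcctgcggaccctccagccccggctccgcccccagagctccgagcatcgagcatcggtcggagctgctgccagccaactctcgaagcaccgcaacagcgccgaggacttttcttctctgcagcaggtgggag
Acta2: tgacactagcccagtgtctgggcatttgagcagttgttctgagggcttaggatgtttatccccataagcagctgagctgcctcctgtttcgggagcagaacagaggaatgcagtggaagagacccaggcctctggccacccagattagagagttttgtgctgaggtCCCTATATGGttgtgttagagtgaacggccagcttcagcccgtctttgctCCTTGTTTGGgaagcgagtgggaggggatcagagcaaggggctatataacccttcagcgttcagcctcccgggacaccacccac
Of the 8 tested smooth muscle genes 6 had a window, and these were the 2 with a box. Such a box was in the windows of 11.3% of 27025 genes, and the form without G or C in the middle in 1.81%, including Myl9 and not Acta2. Of the 15 named higher genes 8 had a window and 0 of them a box. Of the 15 named lower genes 10 had a window and 3 of them a box, namely Cd59a, Acta2 and Myl9. Counts this small cannot set these lists apart from each other or from the 11.3% of all genes. Among the score genes, Pcp4 and Cytl1 each had a box of the looser form. A match is a description of the letters and no evidence of binding.

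The other named lower genes were of several kinds. Ncam1, the neural cell adhesion molecule, stood at 0.286 and 0.152 against 1.06 and 0.715 (log2 fold −1.64 ± 0.07, limma adjusted p = 0.00023). Cryab, a small heat shock protein, stood at 1.36 and 1.49 against 3.51 and 3.81 (−1.30), and Chchd10, a protein of the mitochondrial intermembrane space, at 2.503 and 2.92 against 6.11 and 6.16 (−1.15). In Cryab and Chchd10 the 2 classes were far apart in relation to the spread between libraries. For Ncam1 the other cells themselves differed between the libraries, at 1.06 and 0.715. The vesicle protein Vamp5 (−1.34), the complement inhibitor Cd59a (−1.30), Tmem35 (−1.18), 2200002D01Rik (−1.08), the protease Prss23 (−1.08), Tagln2 (−0.99), the proprotein convertase inhibitor Pcsk1n (−0.97) and Igfbp7 (−0.93) completed the 15 named lower genes. The 15 were picked for the largest folds from the 7.55% called lower, and the largest adjusted p was 0.0046. Their lack of overlap between the classes was in part set by that choice.

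Members of the insulin-like growth factor (IGF) axis differed in both directions. Of 10 tested genes 5 were higher, against 5.72% of all genes, and 2 lower, against 7.55%. The ligand Igf2 stood at 0.481 and 0.460 against 0.232 and 0.243 (log2 fold 0.76 ± 0.07), and both receptors were higher, the signalling receptor Igf1r with 0.44 and the clearance receptor Igf2r with 0.48. Of the binding proteins Igfbp4 was higher, while Igfbp6 (0.0841 and 0.0858 against 0.306 and 0.350, log2 fold −1.21) and Igfbp7 were lower. H19 was the fifth higher member, and the ligand Igf1 (−0.17) and the binding proteins Igfbp2 and Igfbp3 did not pass the test. H19, Igf2, Igf2r, Mest and Plagl1 are all imprinted, and a list of imprinted genes was then drawn up after these values were seen. In it 5 of 15 tested genes were higher and 3 lower, namely Grb10 (−0.49), Dlk1 (−0.56) and Peg3 (−0.43), with a median log2 fold of 0.00. Meg3, an abundant maternal non-coding RNA, stood at 21.6 and 11.5 against 23.0 and 10.8. The imprinted genes were therefore not higher as a group.

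The cartilage genes that could be tested were higher, at low levels. Col2a1, the collagen of cartilage, stood at 0.495 and 0.391 against 0.127 and 0.119 (log2 fold 1.28 ± 0.08, limma adjusted p = 0.00043). Col2a1 was highest, at 0.920 and 1.04, in gated cells with Thbd or Mecom and no other score gene. In gated cells with neither Thbd nor Mecom it stood at 0.0656 and 0.195, the first below the other cells. Comp, a cartilage matrix protein, stood at 0.488 and 0.209 against 0.150 and 0.0613 (1.09), and Matn4 had a log2 fold of 0.29. These were all 3 tested members of 11 listed cartilage genes (5.72% of all genes were higher), and the remaining members, Sox9 and Acan among them, were below the minimum mean or absent from the values. Of 3 tested bone genes Spp1, whose direction was not firm, and the transcription factor Runx2 (0.36) were higher, and Col10a1 (−0.23) did not pass the test. Of 9 matrix proteoglycans 4 were higher, among them Bgn or biglycan (23.6 and 19.3 against 15.4 and 12.5, log2 fold 0.62) and Ogn (0.62), and Dcn or decorin was lower (−1.01). Over all genes 5.72% were higher and 7.55% lower, which also applies to the lists that follow in this paragraph. Of the basement membrane genes Lama4 (0.34) and Col18a1 (0.52) were higher and Col15a1 (−1.30) lower among 8, Col18a1 turning to −0.09 with Mecom left out of the score, and of the metalloproteinases and their inhibitors 3 were higher and 3 lower among 9, with Mmp2 (0.51) beside Mmp13 above and Mmp11 (−0.81) below.

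The fibroblast list gave no single direction: of 11 tested genes Col3a1 (0.37) and Thy1 (0.39) were higher and Dcn and Prrx1 (−0.35) lower. Over all tested genes 5.72% were higher and 7.55% lower. Col3a1 turned to −0.44 with Mecom left out of the score. Col1a1 stood at 7.26 and 2.84 in gated cells and 7.25 and 3.80 in the others, and did not pass the test. The list summed to 38.7 and 22.5 UMIs per 10,000 against 35.8 and 22.6. The near-equal sums were not those of most gated cells: 91 of the 800 cells, those with Thbd or Mecom and none of the other score genes, held 106.8 and 59.5, and the rest of the gate lay below the cells outside it.

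Around Ntrk2, 1 of 9 tested genes of neurotrophin signalling was higher and 1 lower, near the shares over all genes (5.72% and 7.55%). Bdnf, the ligand of TrkB, stood at 0.0722 and 0.0769 in gated cells and 0.164 and 0.170 in the others (log2 fold −0.61 ± 0.06). Shc1, an adaptor protein that receptor tyrosine kinases bind, stood at 1.01 and 1.04 against 0.584 and 0.654 (0.64 ± 0.06). The other 7 tested genes of the list did not pass the test. The receptors Ntrk3 and Ngfr were at or below 0.0196 in gated cells and were not tested.

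The tested genes that respond to ERK, a kinase downstream of such receptors, were mostly higher. Of 10 tested 7 were higher, against 5.72% of all genes, and 1 was lower (median log2 fold 0.32). Etv1, a transcription factor, stood at 0.401 and 0.443 against 0.210 and 0.239 (log2 fold 0.69 ± 0.06, limma adjusted p = 0.0013). Egr1, an immediate early gene, stood at 1.65 and 2.00 against 1.21 and 1.48 (0.41), and the feedback inhibitors Dusp6 and Spry1 had log2 folds of 0.41 and 0.41. Ier3 (0.33) was higher but overlapped between the classes, and Phlda1 was lower (−0.48). Of the members below the minimum mean, Spry2 and Spry4 were higher and Dusp4, Dusp5 and Fosl1 lower in both libraries. Of 7 genes of AP-1, which is also induced this way, Fos (0.50), Fosb (0.33) and Maff (0.28) were higher and 0 lower, against 5.72% and 7.55% of all genes. Fos and Fosb overlapped between the classes, as replicate 2 was higher than replicate 1 in both.

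Around Thbd, 4 of 9 genes of coagulation and fibrinolysis were lower, against 7.55% of all genes, and 0 higher, against 5.72%. The lower genes included Tfpi, the inhibitor of the tissue factor pathway (−0.67), and Anxa2 (−0.37) and S100a10 (−0.35), which form a plasminogen-binding complex at the cell surface. Thbd itself is an endothelial marker, and the endothelial list was therefore examined. Of its 10 measured members 2 were tested, Tek and Eng, and neither passed. Tie1, Esam and Cldn5 were at 0 in the gated cells of both libraries, but had only 7, 38 and 13 UMIs in all cells. Cdh5 and Kdr were higher in replicate 1 alone, Pecam1 was higher in replicate 2 alone, and Egfl7 was lower in both, all at low levels. The list summed to 0.333 and 0.379 in gated and 0.382 and 0.337 in other cells. Plvap, a vessel gene outside the list, was higher (0.95). Trophoblast also expresses Thbd, and the trophoblast genes summed to 0.0418 and 0.0297 against 0.0726 and 0.124, and 0 of 10 reached the minimum mean.

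Around Pcp4, only Rcan1, an inhibitor of calcineurin (0.60), was higher and Camk2d (−0.29) lower among 11 tested calmodulin genes and targets, near the shares over all genes. Members below the minimum mean over all non-pluripotent cells were not tested and went both ways. Among them Pde1c stood at 0.135 and 0.0822 in gated cells against 0.0261 and 0.0249, and Pde1b at 0.0128 and 0.0167 against 0.0314 and 0.0178. Around Mecom, 0 of 7 tested partners and stem cell factors were higher, while Runx1 (−0.36) and Meis1 (−0.65), transcription factors that blood stem cells share with Mecom, were lower. Of the members not tested for their low mean, Erg was higher in both libraries, at 0.190 and 0.135 against 0.0454 and 0.0441. Prdm16 was lower in both, at 0.0361 and 0.0211 against 0.0527 and 0.0312. The Hox genes, which record position along the body axis, differed in both directions. Of 11 tested 6 were lower, against 7.55% of all genes, and 2 higher, against 5.72%. Hoxc8 stood at 0.163 and 0.110 against 0.417 and 0.334 (log2 fold −1.01 ± 0.06), and Hoxc6 (−0.70), Hoxb7 (−0.69), Hoxc10 (−0.61), Hoxc9 (−0.60) and Hoxb4 (−0.47) were lower too. In gated cells with Thbd or Mecom and no other score gene, Hoxc8 was not lower, at 0.480 and 0.455. Hoxd11 stood at 0.276 and 0.266 against 0.132 and 0.117 (0.72 ± 0.06), and Hoxa10 had a log2 fold of 0.40. The lower genes lay in the Hoxb and Hoxc clusters and the higher ones in Hoxa and Hoxd.

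Genes of the p53 response and of senescence, both known barriers to reprogramming, were more often lower. Of 15 tested 7 were lower, against 7.55% of all genes, and 1 higher, against 5.72% (median log2 fold −0.20). Cdkn1a, the cell cycle inhibitor p21, stood at 2.42 and 2.30 against 3.52 and 3.49 (log2 fold −0.55 ± 0.06, limma adjusted p = 0.0029), and Ccng1, Mdm2 and Phlda3, targets of p53, had log2 folds of −0.58, −0.46 and −0.43. The lower Cdkn1a did not hold in gated cells with Thbd or Mecom and no other score gene, where it stood at 4.76 and 3.75. Cdkn2a stood at 0.993 and 0.694 against 1.39 and 0.994 (−0.45), and Cdkn2c was the higher gene (0.51). Cell cycle genes were not higher beside this. Of 18 S phase genes only Rrm1 (−0.57) and of 18 mitotic genes Ccnb2 (−0.56), Cdc20 (−0.47) and Tpx2 (−0.26) passed, all of them lower. Over all genes 7.55% were lower, so the S phase count was near that share. The mitotic genes summed to 9.20 and 6.80 in gated and 9.25 and 8.30 in other cells.

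Of the reprogramming factors only Klf4 differed, at 0.167 and 0.112 against 0.223 and 0.204 (−0.40), while Pou5f1 (0.0903 and 0.155 against 0.0826 and 0.153) and Myc did not pass and Sox2 was below the minimum mean. Reads of the cassette were not told apart from those of the endogenous genes. None of 4 tested pluripotency genes outside the rule passed, and the 14 genes of that list summed to 0.818 and 1.01 against 0.793 and 1.11, and to 51.8 and 60.6 in the excluded cells. Beside the higher Tdh of the gated cells, this sum was not higher in both libraries, and Tdgf1 was at 0.0136 and 0.0439 against 0.207 and 0.0782. The filter had left out cells with several of its genes from both classes. It thereby limited in advance how far pluripotency genes could accompany Tdh. These values therefore cannot show whether Tdh rises without them, and are a description.

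Macrophage, mesothelial, epithelial and neural markers were scarcer in gated cells. Lyz2, a macrophage gene, stood at 0.00975 and 0.00453 against 0.104 and 0.337, Msln, a mesothelial gene, at 0.0499 and 0.0398 against 0.143 and 0.361, and the keratins Krt18 and Krt19 had log2 folds of −0.96 and −1.01. All 3 tested neural genes were lower, Ncam1, Nes (−0.65) and Stmn2 (−0.52), against 7.55% of all genes. Of these, Stmn2 turned to 0.03 with only cells of 0 filter genes. The macrophage list summed to 0.0278 and 0.0581 in gated and 0.241 and 0.607 in other cells, and the epithelial list to 0.123 and 0.129 against 0.707 and 0.554. The comparison class holds such cells, so a lower value in gated cells can also describe them. The part of these minor cell types in the other differences was not tested.

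The smaller remaining lists gave few calls, to be read against the 5.72% of all tested genes called higher and the 7.55% called lower. A single call in a list of this size is no result about the list. Dkk3 (0.69) was higher and Sostdc1 (−0.91), Dkk2 (−0.67) and Sfrp1 (−0.35) were lower among 6 tested secreted Wnt antagonists. Nqo1, Srxn1 and Gpx3 were lower among 9 genes of oxidative stress, Ndrg1 (0.57) was higher among 13 of glycolysis and hypoxia, and Id1 (−0.49) was lower among 10 of bone morphogenetic protein and TGF-beta signalling. Of 7 integrins Itga11 (−0.62) and of 3 inflammatory factors Csf1 (−0.28) were lower. Lamb1 (0.53) and Pth1r (0.49) were higher and Col4a1 (−0.55) and Col4a2 (−0.38) lower among 5 endoderm genes, and of the fat cell genes Fabp4 was higher (0.47) and Lpl lower (−0.81). Of 9 cholesterol synthesis genes, 3 interferon-stimulated genes, and the single tested pericyte and steroidogenic genes, 0 passed.

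The same genes were then followed along the score, with no test, since the score chose the classes. Actg2 stood at 2.07 and 1.76 in ranks 1 to 200, at 3.95 and 2.67 in ranks 201 to 800, at 6.38 and 4.55 in ranks 801 to 1600, at 10.8 and 6.92 in ranks 1601 to 3200 and at 14.4 and 9.46 in the remaining cells. Fam101b went the other way, from 3.63 and 3.29 through 3.46 and 2.71, 2.27 and 1.86, and 1.64 and 1.32 to 0.962 and 0.844. Of the 15 named lower genes 11 increased at every step in both libraries, and of the 15 named higher genes 6 decreased at every step. In all 30 the cells just outside the gate (ranks 801 to 1600) lay on the gated side of the last band. The named genes were chosen for large differences across rank 800, so such trends were in part set by that choice. No such counts were made over all genes.

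Spp1 did not follow that order. It stood at 4.24 and 5.70 in the 200 highest cells, at 15.1 and 12.8 in ranks 201 to 800, at 19.8 and 10.5 in ranks 801 to 1600 and at 4.603 and 1.98 in the last band. Within the gate it was thus higher in ranks 201 to 800 than in the 200 highest cells.

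**Figure D4:**
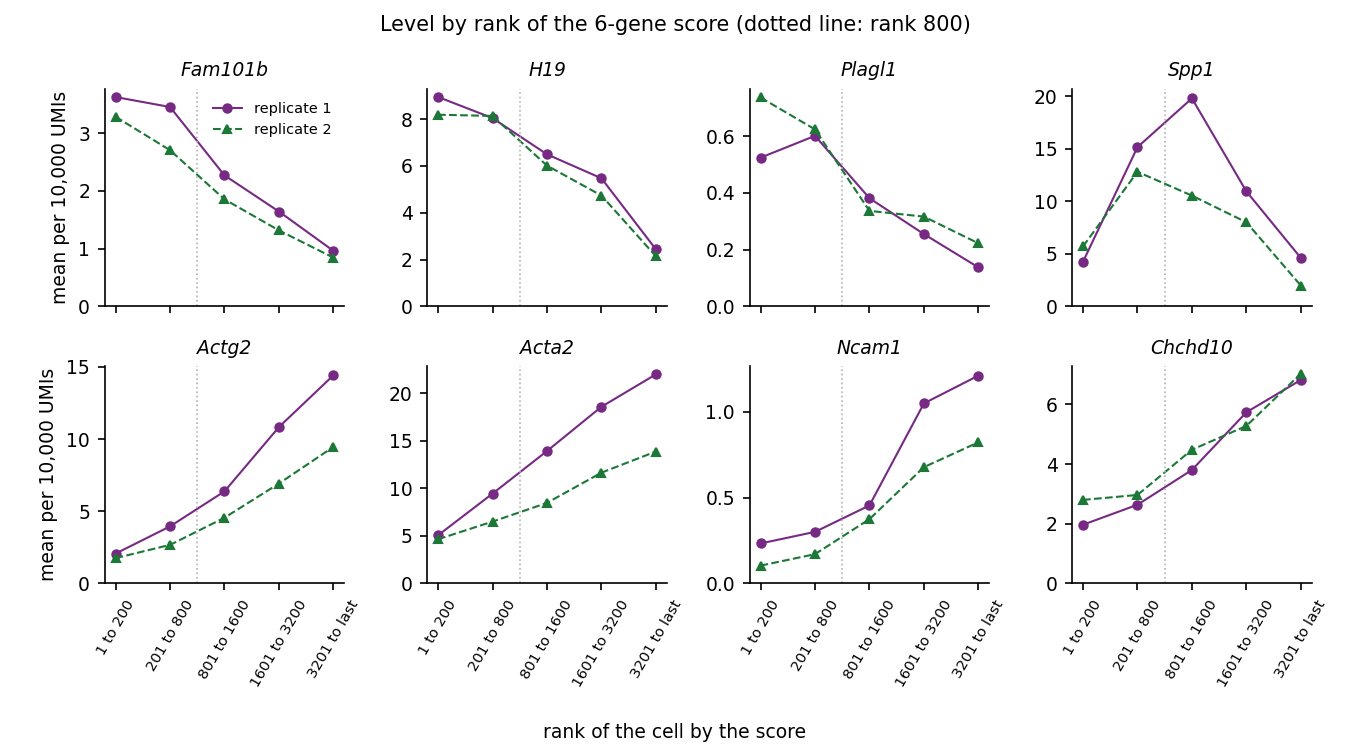
Mean UMIs per 10,000 (y axes, linear from 0) of 4 named higher genes (top) and 4 named lower genes (bottom) in 5 bands of cells by rank of the score (x axis), circles and solid lines for replicate 1, triangles and dashed lines for replicate 2. Levels change by degrees across rank 800 (dotted line), and Spp1 is highest around it.

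The gated cells were not uniform. The split below was chosen after the values were seen, by which score genes had a UMI in the cell, and is given with no test. Thbd or Mecom without any of the other 4 genes was found in 52 and 39 gated cells, both kinds together in 233 and 339, and Ntrk2, Nxpe2, Pcp4 or Cytl1 without Thbd or Mecom in 36 and 101. Median depths were 11855 and 10792 UMIs in the first subset, 13588 and 12478 in the second and 12490 and 11266 in the third.

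The small first subset was rich in matrix genes. Its fibroblast list summed to 106.8 and 59.5 UMIs per 10,000, against 27.5 and 20.8 in cells with both kinds, 13.001 and 13.8 in the third subset and 35.8 and 22.6 in cells outside the gate. Spp1 stood at 58.5 and 43.4 in the first subset, against 4.58 and 6.64, 1.17 and 12.2, and 8.44 and 4.94. Mmp13 stood at 4.41 and 4.18, against 0.423 and 0.217, 0.902 and 0.0219, and 0.396 and 0.248. For both genes the 91 cells of the first subset stood far above every other group. In the cells with both kinds Spp1 was below the level outside the gate in replicate 1 and above it in replicate 2, and in the third subset it was above it only in replicate 2. Col1a1 stood at 24.3 and 11.9 in the first subset, 4.25 and 2.18 in the second and 2.19 and 1.56 in the third, against 7.25 and 3.80, so that in gated cells outside the first subset both Col1a1 and the fibroblast sum were below their levels in the cells not gated.

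Other named genes were shared more widely. Fam101b stood at 3.60 and 3.78 in the first subset and 3.79 and 3.21 in the second, but only 1.42 and 1.38 in the third, near the 1.33 and 1.13 outside the gate. Plagl1 and Itgbl1 were likewise higher in the first 2 subsets of both libraries. Of the 15 named higher genes, 15, 13 and 6 lay above the cells outside the gate in both libraries in the Thbd or Mecom, the mixed and the Ntrk2 subset, in that order. Of the 15 named lower genes 13, 15 and 15 lay below. The named genes were chosen over the whole gate, and no such counts were made over all genes. Actg2 was low in each subset, at 2.05 and 2.23, 4.13 and 2.48, and 2.15 and 2.26.

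The third subset, with Ntrk2, Nxpe2, Pcp4 or Cytl1 alone, therefore shared the lower genes with the rest of the gate and not most of the higher ones. Its smooth muscle list summed to 9.11 and 10.5, the lowest of the 3 subsets, and its Chchd10 level, 4.87 and 4.62, was nearer to the 6.11 and 6.16 outside the gate than that of the first subset (1.78 and 1.97). All non-pluripotent cells with a UMI of 1 score gene were also set against those without, again as a description, since the named genes come from a gate made with these genes. The 15 named higher genes were all higher in both libraries in cells with Thbd and in cells with Mecom, 13 of them in cells with Pcp4, 8 with Nxpe2, 7 with Ntrk2 and 5 with Cytl1. The 15 named lower genes were all lower with Ntrk2 and with Cytl1, 14 of them with Pcp4, with Nxpe2 and with Mecom, and 8 with Thbd. Thbd was thus the gene with the fewest of the lower genes, and Pcp4 was nearer to Thbd and Mecom in the higher ones. Of all tested genes, the shares higher in both libraries were 41.0% with Thbd, 43.0% with Mecom and 21.4% with Pcp4. They were 31.0% with Nxpe2, 23.7% with Ntrk2 and 26.1% with Cytl1. The shares lower in both, in the same order, were 35.6%, 32.3%, 36.5%, 43.4%, 44.4% and 36.4%. The count of 5 of 15 higher genes with Cytl1 was near its share.

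**Figure D5:**
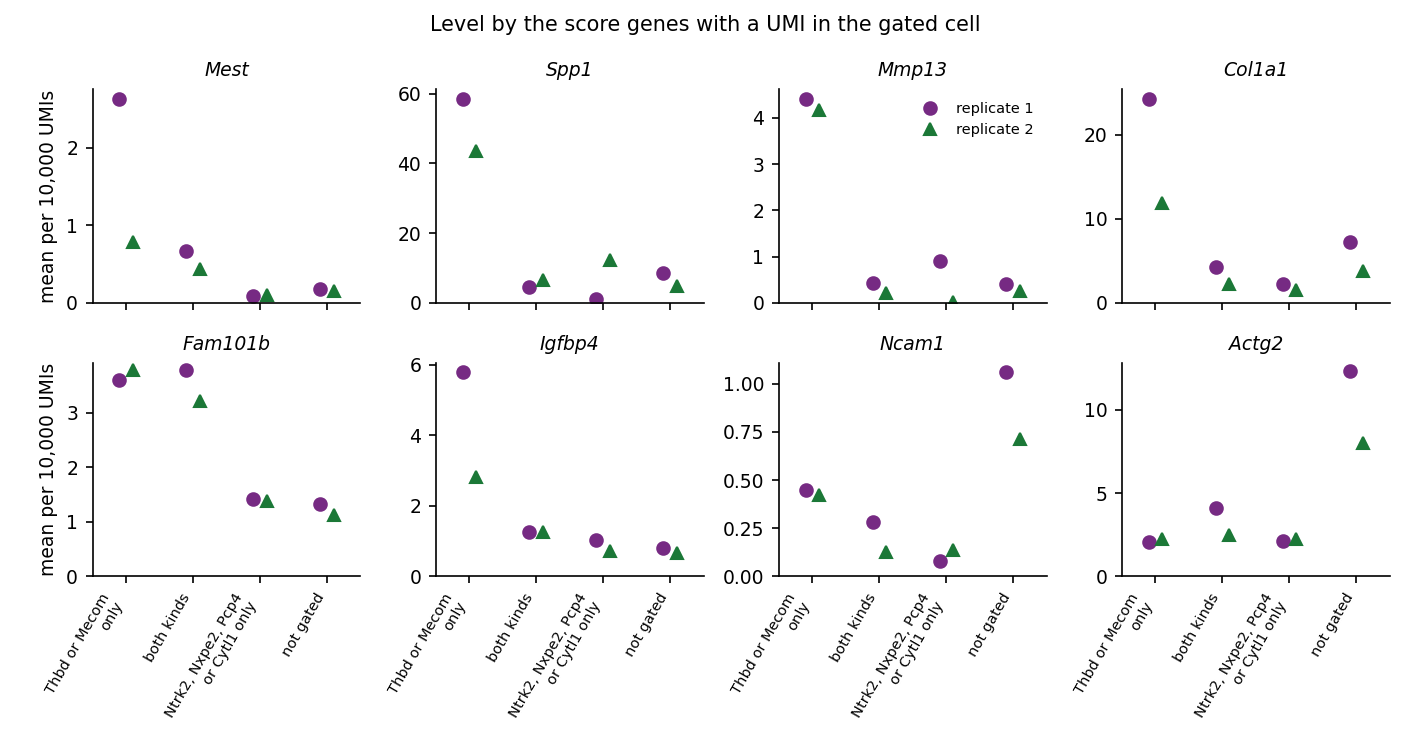
Mean UMIs per 10,000 (y axes, linear from 0) of 8 genes in gated cells with Thbd or Mecom only, with both kinds of score gene, with Ntrk2, Nxpe2, Pcp4 or Cytl1 only, and in non-pluripotent cells outside the gate; circles are replicate 1 and triangles replicate 2. Mest, Spp1, Mmp13, Col1a1 and Igfbp4 were highest in the cells with Thbd or Mecom only, whereas Ncam1 and Actg2 were lower than outside the gate in all 3 subsets.

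The gated cells were finally set against 3 groups of 800 non-pluripotent cells each, chosen in the same way by 3 other genes, with shared cells left out, which left 723, 746 and 755 gated cells in the order given here. The overlap was 77 cells (9.63% of each set) with the Rarres2, Sostdc1 and Cyp11a1 group, 54 (6.75%) with the Tac2, Rnase1 and Ramp3 group and 45 (5.63%) with the Mylk, Thbs1 and Itga11 group. The same gated cells are in all of these comparisons, so the comparisons are not independent of each other.

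Against the Rarres2 group 4.89% of 7079 genes were higher and 7.92% lower in gated cells. The contractile genes were among the lowest: Actg2 stood at 3.44 and 2.26 against 19.6 and 15.3, and Tagln at 2.79 and 2.28 against 13.3 and 11.5. All 8 smooth muscle genes tested were lower (median log2 fold −1.66), as were Ncam1 (−2.75) and Vamp5 (−2.35). Gm867 (−2.29) overlaps the end of Chchd10 on the opposite strand. Of the 15 named higher genes 10 were higher here, with H19 at 8.27 and 7.74 against 1.18 and 3.43, and Spp1 (1.89), Cib2 (1.77), Mmp13 (1.73) and Shisa3 (1.29) had the next largest folds.

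Against the Tac2 group 15.4% of 7080 genes were higher and 5.86% lower. Here the contractile genes did not stand apart: of 8 tested 1 was higher and 1 lower (median log2 fold 0.14). Instead all 15 named higher genes were higher, and so were 9 of 11 fibroblast genes (median log2 fold 1.70). Spp1 stood at 13.6 and 11.7 against 0.307 and 0.164 (log2 fold 5.27 ± 0.13, limma adjusted p = 3.3e-06), Fam101b at 3.64 and 2.96 against 0.289 and 0.385, and 1500015O10Rik (3.27), H19 (3.003) and Igfbp4 (2.94) were the others of the 5 largest. Cd59a (−2.59), Dmrtc2 (−2.41), Avil (−2.32), Pcsk1n (−2.17) and the junction protein Jam2 (−1.76) were the lowest.

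Against the Mylk group, whose genes mark contractile and matrix-rich cells, 18.2% of 7079 genes were higher and 27.8% lower. All 7 tested smooth muscle genes and 10 of 11 fibroblast genes were lower (medians −2.22 and −1.59). Mylk, which helped choose this group, is itself on the smooth muscle list. Such lower values could follow from the choice of the group and are a description. Igfbp7 stood at 1.71 and 1.31 against 12.1 and 12.6, and Ncam1 (−3.28), Prss23 (−3.05) and the collagen Col8a1 (−2.998) were also at the low end. Crym, a thyroid hormone binding protein, stood at 4.46 and 4.59 against 0.599 and 0.370 (log2 fold 3.01 ± 0.13). Apela, the peptide ligand of the apelin receptor, stood at 0.913 and 0.662 against 0.0741 and 0.0511, and 0610040J01Rik (2.33), the chemokine Ccl8 (2.24) and Pipox (2.22) followed. Crym and Apela were among the largest folds only here, and against all other cells their log2 folds were 0.18 and 0.17. Of the 15 named higher genes 5 were higher and 3 lower against the Mylk group.

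Xist, which silences an X chromosome in female cells, and Y-linked genes were measured because the libraries held cells with Xist and cells with Y-linked transcripts. Xist stood at 6.49 and 4.64 in gated cells and 4.57 and 5.23 in the others, so the libraries went in opposite directions (mean difference 0.661 ± 1.78, SD, n = 2, exact sign-flip p = 1). An Xist UMI was found in 64.2% and 46.6% of gated cells against 50.2% and 52.6%, and after thinning in 57.6% and 38.6% against 42.3% and 45.4%. Y-linked genes summed to 0.433 and 0.544 against 0.504 and 0.507. Tsix, Ddx3y and Eif2s3y did not pass the test, and Kdm5d and Uty were below the minimum mean.

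The X-to-autosome ratio, the median of 214 X-linked genes over that of 6828 autosomal genes, was 0.991 and 1.01 in gated cells and 1.04 and 1.06 in the others. Gated cells were thus lower by a mean difference of −0.0481 ± 0.000135 (SD over 2 libraries, exact sign-flip p = 0.5). In cells without a Y-linked UMI it was −0.0677 and in cells with 2 or more the libraries went in opposite directions (0.0290 and −0.0576). It was 0.0116 when only cells with 0 filter genes were gated and compared, so the lower ratio was not seen under that stricter filter. The libraries also went in opposite directions with the score on thinned UMIs (−0.0416 and 0.00841) and with Nxpe2 left out of the score (−0.0605 and 0.00258).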

How the data were processed

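Single-cell 3' RNA-seq (10x Chromium V2) of 2 libraries from day 16 of STEMCCA reprogramming was analysed. Per the study's methods and the submitters' processing notes, the authors counted reads with Cell Ranger 2.1.1 on mm10 (reference 1.2.0) and, in Seurat 3.1.2, retained cells in which over 1500 and under 6000 genes were detected and under 9% mitochondrial RNA. The deposited values were on a natural log scale, ln(1 + UMIs per 10,000). Back on a linear scale every cell summed to 10000, and 100% of values above 0 were whole multiples of the cell's smallest value within 0.01, so UMIs were recovered (54145377 and 64654306 in all, 4753 to 60990 per cell). The table held 17408 genes and 7023 cells and each cell's barcode suffix, as labelled, gave its library. The libraries shared 12 barcodes. No doublet caller was run and the sources used here do not say that doublets were removed.

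The score, the filter, the 3 comparison groups and all gene lists were chosen with earlier results of these data known. For each class and library the profile was the mean over cells of the linear values. Genes that reached a mean of 0.1 over the non-pluripotent cells were fitted by limma 3.58.1 (R 4.3.3) as log2(mean + 0.1), with class and library in the model, and all p-values were adjusted together (Benjamini-Hochberg, threshold 0.05). Limma had 6.76 degrees of freedom in all. Most of these were borrowed from the spread of the other tested genes, since 4 profiles leave few per gene. The SE and p-value of a gene therefore rest in large part on that shared spread. The score and filter genes were left out of the fit. It was first run on simulated profiles. Named genes were the 15 largest folds each way among genes past the threshold, alike in direction in both libraries and with a mean of at least 0.5 in the higher class, up to 4 members per list past the threshold, all reprogramming and X inactivation genes, and the 5 largest folds each way per comparison group. A gene that met these rules is not reported here. Fam101a, Fam101b's relative, and other list members beyond these were named after their values were seen. Both classes came from each library, so library was the block. Coordinates are GRCm38, GENCODE M21 (16782 genes by symbol and 413 by RefSeq synonym). Shares have exact binomial 95% intervals. Alternatives were other pseudocounts, minimums, scores, cell numbers and filters, summed UMIs, thinning to 3000 UMIs and, chosen after seeing the data, a variance trend.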

Additional observations from a re-analysis of the deposited data

How the results depend on the processing

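The counts of genes called moved most. Against 405 higher and 535 lower, a pseudocount of 0.01 gave 188 and 220, a minimum mean of 0.5 gave 145 and 290, summed UMIs 611 and 913, and a score on thinned UMIs, which kept 59.3% of the gated cells, 167 and 198. With no minimum limma gave 0 and 0, with 3340 genes at an unadjusted p under 0.05 among 17155 tested. Without the replicate block (no library term) the counts were 17 and 18; the labels give no replicate numbers, and the pairing comes from both classes being cut from each library. The 400 highest cells gave 263 higher, and the variance trend 803, cells with 0 filter genes 289 and the score without Mecom 905 lower. Calls by limma could not be made with 1 library left out. The genes at least 2-fold higher (7) and lower (15) in both libraries numbered 0 and 1 with a pseudocount of 1, 23 and 60 with 0.01, 2 and 7 with a minimum of 0.5, and 2 and 3 on thinned UMIs. They were 16 without Nxpe2, 12 without Ntrk2, 2 without Thbd and 2 without Mecom for higher, 31 with 400 cells, 5 with 1600 and 6 with 0 filter genes for lower, and 12 to 18 higher and 29 to 35 lower with 1 library left out. The causes were not tested.

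All 30 named genes kept direction under every alternative except Spp1 (−0.118 with 400 cells, −0.450 without Mecom). Their calls were less firm. Without the library term 20 of the 30 no longer passed the threshold, and with no minimum all 30 no longer did. With a minimum of 0.5, 21 were tested and kept their calls. Other list genes that reversed were Stmn2 (0.0340) and Thbs1 (0.0463) with 0 filter genes, Col3a1 (−0.445), Col18a1 (−0.0942), Aspn (−0.0445) and Timp2 (−0.0738) without Mecom, and Cdkn2b (0.0529 on thinned UMIs, 0.170 with 0 filter genes, 0.160 without Nxpe2, 0.0291 without Ntrk2). The difference in X-to-autosome ratio was 0.0116 with 0 filter genes, that in Xist −0.598 to 1.92 with 1 library left out, and that in mitosis, summed level, 0.0182 without Thbd. For Y-linked genes, summed level, it was 0.0235 on thinned UMIs, 0.0055 without Pcp4, 0.0297 without Nxpe2 and −0.0714 to 0.0366 with 1 library left out. For fibroblast, summed level, it was −3.02 with 400 cells, −2.95 without Thbd, −8.22 without Mecom and −0.0767 to 2.91 with 1 library left out. The neighbourhood share of gated cells was 26.0% with 400 cells, 49.3% with 1600, 26.0% on thinned UMIs and 33.4% without Nxpe2, and the share of gated cells among non-pluripotent cells 17.4% with 0 filter genes.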
